A study of Mus musculus with 3 samples.

Results

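The regions described here were marked by H3K4me3 with clear peaks in both wild-type (WT) and Huntington's disease model (HD) mouse hippocampus, but over a much shorter stretch of DNA in HD. They were chosen by their measured lengths. Overlapping WT and HD peaks were joined into regions, and a region was a member when its best peak scored at least 100 in each library and WT peaks covered over 1.5 times as many base pairs as HD peaks. Members numbered 300 of 20211 regions in all, and 300 of the 15268 regions that were clearly called in both libraries. Lengths and edges entered this choice, so their values below are a description and carry no test.

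H3K4me3, trimethylation of lysine 4 of histone H3, marks nucleosomes around active and poised promoters. The mark is laid down by SET1 and MLL family methyltransferases and removed by KDM5 family demethylases. At a typical active promoter it flanks the transcription start site and reaches into the first part of the gene body, so a peak's length reflects how far the marked nucleosomes extend on each side. Long H3K4me3 stretches are known in brain at genes of neuronal identity.

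The HD library came from N171-82Q mice, which carry a transgene for an N-terminal fragment of mutant huntingtin driven by the mouse prion protein promoter, and the WT library from their littermates without it. All animals were adult males on a C57/DBA F1 hybrid background and their exact age is not stated in the labels. Each library was 1 chromatin immunoprecipitation (ChIP) from the hippocampi of 3 mice pooled, so no genotype had a replicate, and every difference is one between 2 libraries. Per the labels, the raw reads of the WT library are also part of an earlier deposit and no such statement is made for HD, so any difference between sequencing runs cannot be told apart from genotype.

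The lists held 18515 WT and 19631 HD peaks, with scores that are the authors' own and lie on the scale of each list. Read depth is unknown because the files hold peaks and not counts. In whole tissue, fewer cells carrying the mark and less of it per cell cannot be told apart. Genes, strand and sequence at the members were not analysed here, because the gene table used covers GRCm38.p6 and the peaks lie on mm9. For the same reason the tissue label was not checked against marker genes. Left and right below mean lower and higher coordinate, not upstream and downstream of a gene.

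Members made up 1.96% of clearly called regions, while 68 regions, 0.445%, were over 1.5-fold longer in HD. Both figures are the rule's own output. Among clearly called regions past the cutoff in either direction, 81.5% were shorter in HD. Over all clearly called regions the log2 length ratio, HD over WT, had a median of -0.09 and an upper quartile of 0.03. HD peaks were thus slightly shorter at the median but not throughout. With the cutoff set about the median ratio of all shared regions 152 were shorter and 117 longer, 56.5% shorter. All 152 of these shorter regions are members, and the remaining members passed only with the cutoff about equal length. Only 23 members were over 2-fold shorter.

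The members covered 921 kb in WT and 557 kb in HD. Their loss of 364 kb was 13.96% of the net difference of 2610 kb over all clearly called regions. A member covered a median of 2736 bp in WT (quartiles 1859 and 3939 bp) and 1602 bp in HD (quartiles 1112 and 2371 bp). On the log2 scale the length ratio, HD over WT, ran from -1.42 to -0.59, with a median of -0.68. The other clearly called regions had a median of -0.09 with quartiles of -0.21 and 0.03. More than 1 kb was lost in 163 members and more than 2 kb in 35.

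**Figure D1:**
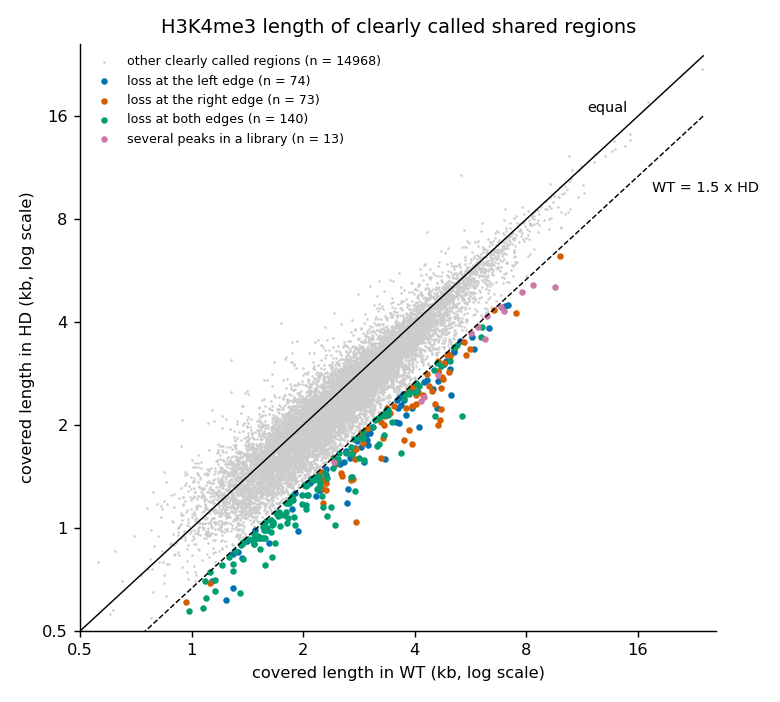
Covered length of each clearly called region in WT (horizontal, kb, log scale) and HD (vertical, kb, log scale), with members coloured by the edge at which they were shorter and other regions in grey. Members lie below the dashed line of WT at 1.5 times HD by construction, mostly close to it, and green points (loss at both edges) fill the short end.

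The members just inside the cutoff differed little from regions just outside it. The smallest loss among members was at chrX:104115184-104117048, where WT peaks covered 1865 bp and HD peaks 1242 bp. Next came chr11:32246841-32250204 with 3364 and 2240 bp, chr9:35231883-35234288 with 2406 and 1602 bp, and chr10:127451520-127452997 with 1478 and 984 bp. All 4 had a WT over HD ratio of 1.502. Outside, chr10:121532541-121535240 stood at exactly 1.5 with 2700 and 1800 bp, followed by chr15:34382649-34384132 with 1484 and 990 bp. The other 2 were chr13:110716073-110718863, with 2791 and 1862 bp, and chr4:68610141-68616764, with 6624 and 4420 bp.

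The largest relative loss was at chr9:32031172-32033951, where the WT peak spanned 2780 bp and the HD peak 1039 bp, a log2 ratio of -1.42. The HD peak kept the left end, starting 131 bp inside the WT peak, and stopped 1610 bp short on the right. Both peaks were weak, with scores of 180.51 in WT and 115.20 in HD. A stronger region followed at chr10:79376915-79382259, where WT covered 5345 bp and HD 2120 bp, a log2 ratio of -1.33. Here the left end was pulled in by 1377 bp and the right end by 1848 bp, the only member of the 12 largest losses with over 1 kb missing at each end.

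Right ends were also missing at chr5:143167826-143172440, where 4615 bp in WT faced 1995 bp in HD and the right edge lay 2494 bp inside. The same held at chr18:34406266-34410928, a well marked region with scores of 1552.97 in WT and 2470.64 in HD. Its WT peak of 4663 bp faced an HD peak of 2062 bp that began 163 bp inside the left end and stopped 2438 bp before the right end. At chr11:3022647-3026565 the lengths were 3919 and 1756 bp, with 2054 bp missing on the right. The HD peak at chr17:3481881-3486706 began 112 bp outside the WT peak on the left and ended 2602 bp inside it on the right, which left 2224 of 4714 bp. In these regions 1 boundary of the mark was nearly the same in both libraries and the opposite part of the domain was not called in HD.

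Left ends were missing at chr3:126699170-126701800, where WT covered 2631 bp and HD 1181 bp, the left edge lay 1384 bp inside and the right edge 66 bp inside. The next losses of this kind were at chr4:154769652-154772979, from 3328 to 1588 bp, and at chr7:88514041-88518153, from 4113 to 1974 bp. At chr3:33037898-33042901, with scores of 1595.57 in WT and 2354.44 in HD, 5004 bp in WT faced 2438 bp in HD. There the left edge lay 2425 bp inside and the right edge 141 bp inside.

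Losses at both edges completed the 12 largest. At chr3:60333534-60335973 the WT mark of 2440 bp faced 1022 bp in HD, with 1049 bp missing at the left end and 369 bp at the right. At chr5:151989998-151993671, 3674 bp faced 1659 bp, with 1480 and 535 bp missing. The region chr14:65032665-65037190 went from 4526 to 2118 bp with 1754 and 654 bp missing, chr2:7001318-7004072 from 2755 to 1279 bp with 378 and 1098 bp missing, and chr17:4999304-5001626 from 2323 to 1082 bp with 314 and 927 bp missing. Even in this class 1 edge carried more of the loss than the other.

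**Figure D2:**
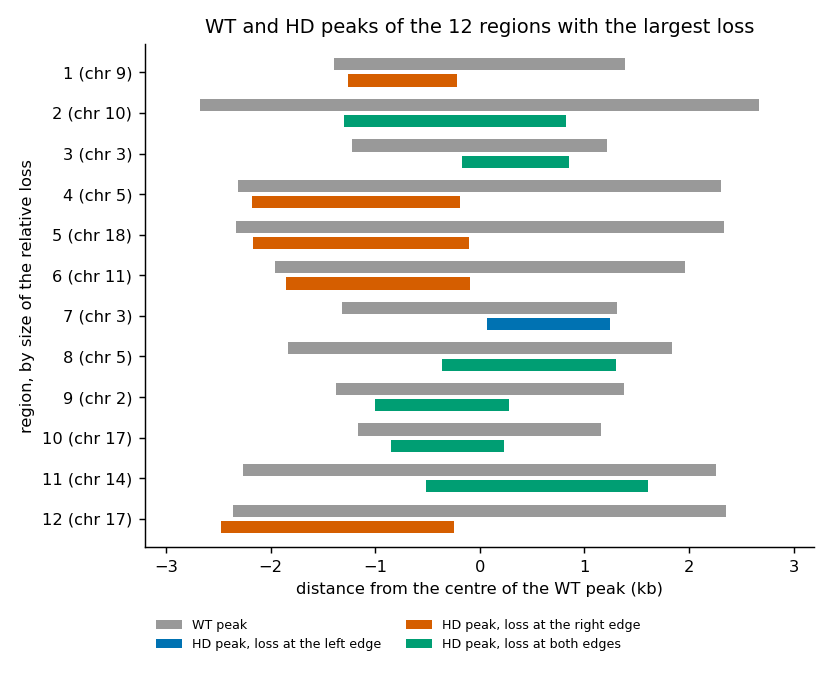
WT peak (grey) and HD peak (coloured by edge class) of the 12 members with the largest relative loss, drawn to scale as distance in kb from the centre of the WT peak. In 5 regions the HD peak kept the left end, in 1 the right end, and in 6 it lost length at both ends.

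Of the 300 members, 287 held exactly 1 peak of each library, so that each edge could be compared. An edge was said to carry the loss when it held at least 80% of the summed inward shift. By this measure 74 members were shorter at the left edge, 73 at the right edge and 140 at both. Loss at 1 edge thus applied to 51.2% (95% exact interval 45.3 to 57.1%, counting error only), split almost evenly between left and right. The share depends on the definition: it was 67.6% with 70% of the shift required and 30.7% with 90%. Among 2399 regions below the cutoff, with WT 1.2 to 1.5 times HD and 1 peak each, it was 39.8% (37.8 to 41.8%). Over all other clearly called regions with 1 peak each, most of them with small shifts, it was 58.7% (57.9 to 59.5%). The class counts inward shifts only, so there it also takes in regions whose opposite HD edge lay outside WT, some of them longer in HD. An HD edge lay outside in 57.2% of those regions, against 10.5% of the members. The 58.7% is therefore not a like comparison, and members were not ranked against regions at large.

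Retractions of over 500 bp at both edges were few. An edge lay over 500 bp inside the WT edge in 199 of the 287 members, and both edges did so in 10 of them, 5.03% (2.44 to 9.05%). In the other clearly called regions with 1 peak each, 872 of 14511 had an edge over 500 bp inside and 5 of these had both, a smaller share than in members. Over 500 bp at both edges needs a loss over 1 kb, which 163 of all 300 members had. The low count thus follows in part from the lengths, which the rule used. Where a single edge carried the loss, it lay inside by a median of 1200 bp (quartiles 896 and 1631 bp), while the opposite edge differed by a median of 110 bp in either direction. The small second value follows from the definition, which leaves at most a minor part of the shift to that edge. In 64 of these 147 members the kept edge agreed to within 100 bp. The HD peak reached past the WT peak at the kept edge in 30 members, 16 on the right and 14 on the left. That is 10.5% (7.16 to 14.6%) of the 287, against 57.2% (56.4 to 58.0%) of the other clearly called regions with 1 peak each, and members were chosen for a shorter HD length.

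**Figure D3:**
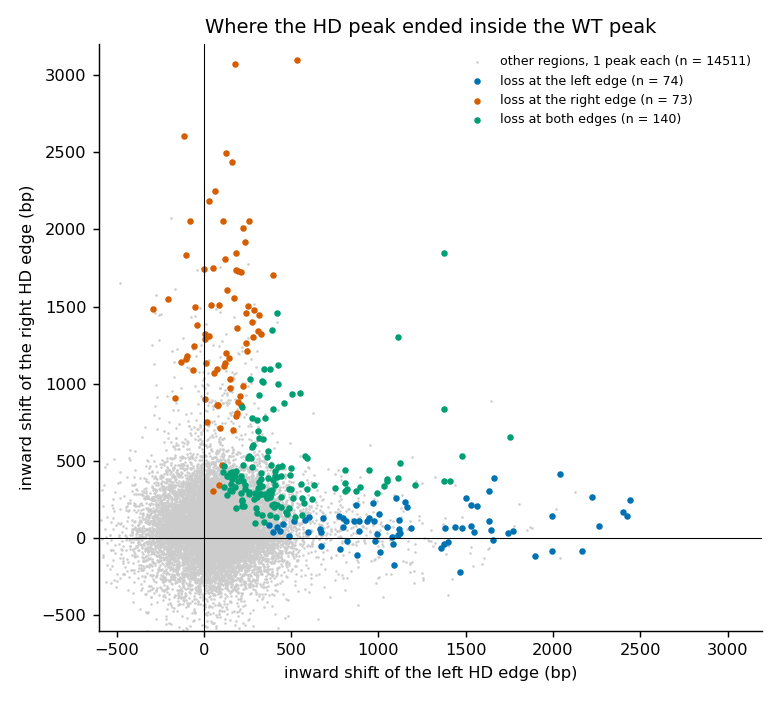
Inward shift of the HD peak at its left edge (horizontal, bp) and right edge (vertical, bp) for members with 1 peak of each library, coloured by edge class, and for other clearly called regions in grey, of which 276 lie outside the plotted range. Members with loss at a single edge form 2 arms along the axes, and the 140 of 287 with loss at both edges lie between them. Few points stand in the corner where both edges lie over 500 bp inside.

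The edge pattern changed with the length of the region. Of the members covering under 2 kb in WT, 15 of 85 were shorter at a single edge, 17.6% (10.2 to 27.4%). The share was 56.8% (45.8 to 67.3%) from 2 to 3 kb, 64.2% (49.8 to 76.9%) from 3 to 4 kb and 78.7% (66.3 to 88.1%) from 4 kb up. Those regions below the cutoff gave 44.7%, 28.3%, 42.1% and 71.6% in the same length classes, so loss at a single edge was also common in wide regions with a smaller loss. In members under 2 kb the median loss was 581 bp, and in members of 4 kb or more it was 1928 bp. For scale, single edges of the other clearly called regions differed by up to 243 bp at the upper quartile and 472 bp at the 95th percentile, so in short regions a smaller excess over the ordinary edge difference was enough to pass the cutoff.

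The share of members was highest among regions short by mean length, which the HD shortening itself lowers in members. Ordered by the mean of the WT and HD lengths, the shortest decile of clearly called regions had 74 members of 1527, 4.85% (3.82 to 6.05%), of which 13 were shorter at a single edge. The share fell to 1.05% (0.60 to 1.70%) in decile 5 and was 2.36% (1.66 to 3.25%) in decile 9, where 26 of 34 members with 1 peak each were shorter at a single edge. In the longest decile it was 1.96% (1.33 to 2.79%), the overall share. By WT length alone, 73 members, 24.3% (19.6 to 29.6%), covered at least 4 kb, against 11.6% (11.1 to 12.1%) of the other clearly called regions. WT length entered the rule too, so neither measure is independent of how members were chosen. By WT score the share went from 4.72% (3.71 to 5.90%) in the lowest decile to 0.79% (0.41 to 1.37%) in the highest. Members had a median WT score of 508 and HD score of 656, at a median of the 26.4 and 23.0 percentile of clearly called regions in the same list. Scores below 200 in both libraries were held by 53 members, 17.7% (13.5 to 22.5%), against 4.56% (4.23 to 4.91%) of the other clearly called regions.

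Strong regions were less frequent among members than elsewhere. A WT score of at least 1000 was held by 98 members, 32.7% (27.4 to 38.3%), against 54.3% (53.5 to 55.1%) of the other clearly called regions, and 54 of the 98 also covered 4 kb or more in WT. In the 91 of them with 1 peak each, 62.6% (51.9 to 72.6%) were shorter at a single edge, against 44.6% (33.0 to 56.6%) of the members with WT scores of 100 to 200. From 200 to 500 it was 39.4%, and from 500 to 1000 56.9%. Regions with WT 1.2 to 1.5 times HD gave 43.9%, 41.8%, 35.7% and 39.8% from the lowest to the highest class. The strongest members were also wider, with a median of 4272 bp in WT against 1596 bp in the weakest class. Score and length were not separated here. The HD score reached 3100, the value at which many scores pile up, in 26 members, 8.67% (5.74 to 12.4%), against 16.3% (15.7 to 16.9%) of the others. In such regions the mark was called with a high score in HD over part of the WT stretch, and the rest was not called.

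The 8 members with the highest WT scores show this. At chr14:77555261-77560152 the WT score was 3107.21 and the HD score 3100, and 4892 bp faced 3193 bp, with 1457 bp missing on the right. At chr1:159338962-159343933 both scores were 3100 and the lengths 4972 and 2919 bp, with 1663 bp missing on the left. At chr18:10178950-10183272, again with 3100 in both, 4323 bp faced 2712 bp with 1531 bp missing from the left end and 80 bp from the right. Each of these is a strongly marked region with a single retracted side.

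Right sides were retracted at chr4:80555822-80560577, from 4756 to 2725 bp with 1847 bp missing, and at chr6:146524723-146529042, from 4320 to 2813 bp with 1265 bp missing. Left sides were retracted at chr19:28081633-28087404, from 5690 to 3605 bp with 2167 bp missing, and at chr11:21468822-21473432, from 4611 to 2864 bp with 1532 bp missing. The last of the 8, chr10:40599508-40606375, had 2 WT peaks covering 6849 bp and 1 HD peak of 4414 bp. There the main peak was kept and a weaker WT peak of 2239 bp on its left, with a score of 160.86, was touched by the HD peak at its end only.

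The widest member was chr11:56824030-56833878, with a WT peak of 9849 bp and an HD peak of 6223 bp. The HD peak began 532 bp inside the left end and ended 3094 bp inside the right, the largest shift of an edge among members with 1 peak each. Next in width was chr3:136331596-136341133, a WT peak of 9538 bp with a score of 1825.97. The HD library had 2 peaks there, covering 5075 bp in the left part with a best score of 3100, and the last 4281 bp held no HD peak. No other clearly called region lay within 841 kb of it.

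Several peaks in a library were found in 13 members, 4.33% (2.33 to 7.30%), against 3.05% (2.78 to 3.34%) of the other clearly called regions. More HD than WT peaks were held by 3.0% (1.38 to 5.62%) of members and 2.30% (2.07 to 2.56%) of the others. Divided peaks thus cannot be called particular to members. Of the 13, 9 had 1 WT and 2 HD peaks, 2 had 2 WT peaks and 1 HD peak, and 2 had 2 peaks of each. Gaps between HD peaks were part of the loss in those with 2 HD peaks: with lengths taken from first to last edge, so that gaps count as covered, 5 of these 11 no longer passed the cutoff and 6 did. Of the 11 gaps, 6 were at most 60 bp wide. The 5 include chr2:117162476-117169439, where a gap of 1726 bp separated HD peaks of 1338 and 2979 bp inside a WT peak of 6964 bp. At chrX:63901393-63909905, over 2020 kb from the next clearly called region, a gap of 1625 bp lay between HD peaks of 2261 and 2884 bp, and the WT peaks covered 8344 bp. The lower scoring HD peak stood below 100 in 8 of the 11 members with 2 HD peaks.

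Most of these 13 had a retracted end as well. At chr6:98973246-98979421 6176 bp faced 3565 bp, with 2277 bp missing on the left. At chrX:166363223-166367464, 4242 bp faced 2420 bp with 1317 bp missing on the left, and at chr18:65235185-65239450, 4164 bp faced 2348 bp with 1792 bp missing on the right. The region chr2:136537291-136545172 had 2 peaks in each library, with totals of 7780 and 4904 bp, and the HD peaks stopped 2730 bp before the right end.

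Other HD peaks beside the members were no more common than elsewhere. Another HD peak lay within 2 kb of 21 members, 7.00% (4.39 to 10.5%), against 6.83% (6.43 to 7.24%) of the other clearly called regions. In 20 of the 21 another WT peak lay there too. When peaks within 2 kb were joined before lengths were compared, 20 of the 21 fell below the cutoff and 1 stayed past it, chr10:79376915-79382259 at a log2 ratio of -0.80. Over the joined stretch the relative difference of those 20 was thus under 1.5-fold. In 20 of the 21 joining added neighbour peaks of both libraries, which draws the ratio toward that of the neighbour. The fall therefore does not show that the shortening of the member itself went away. At chr3:60333534-60335973 the neighbour 58 bp to the left covered 2429 and 2410 bp in the same order, and joining moved the ratio from -1.26 to -0.50. At chr4:82156673-82161574, where 4902 bp faced 3231 bp, the neighbour on the left was a very long peak of 13041 bp in WT against 12246 bp in HD.

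The region chr17:4999304-5001626 had the most neighbours, with 2 HD peaks of 4407 and 950 bp on its left where WT had 1 peak of 5585 bp. At chr1:191989246-191996266, where 7021 bp faced 4448 bp, the neighbour lay 1.89 kb to the right and the loss of 2402 bp at the left edge. In 1 member an HD peak with no WT counterpart stood beside the shortened one: at chr11:98180851-98183225, named after its values were seen, a weak HD peak of 1242 bp lay 58 bp to the left. With it joined the log2 ratio was 0.01 in place of -1.04, so the summed lengths were alike there. The other 279 members had no further HD peak within 2 kb.

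WT peaks that HD lacked were also found beside members. Another WT peak but no other HD peak lay within 2 kb of 9 members, 3.00% (1.38 to 5.62%), against 1.2% (1.03 to 1.39%) of the other clearly called regions. This count also takes in WT peaks that overlapped an HD peak lying further out. Whatever else lay there, 8 members had a WT peak within 2 kb that overlapped no HD peak, 2.67% (1.16 to 5.19%), against 0.92% (0.77 to 1.08%) of the others. Of the 6 such peaks next to a member with loss at a single edge, 5 stood on the side of the loss. The same held for 48 of 74 beside the other clearly called regions of that class, 64.9% (52.9 to 75.6%), and for 11 of 12 beside those with WT 1.2 to 1.5 times HD, so it cannot be called particular to members. With peaks within 2 kb joined, the relative loss, read from the log2 ratio and not in bp, was larger in 6 of the 8 and smaller in 2. These were chr10:59747038-59749813, named after its values were seen, from -0.71 to -0.61, and chr17:4999304-5001626, from -1.10 to -0.52, where HD peaks lay nearby too. At chr1:159338962-159343933 a WT peak of 1171 bp lay 120 bp beyond the retracted left edge, and with it joined the log2 ratio went from -0.77 to -1.07. At chr19:28081633-28087404 one of 972 bp lay 544 bp beyond the left edge, and the ratio went from -0.66 to -0.89. These WT peaks were weak, with scores of 50.57 and 65.21. The strongest WT-only neighbour, of 2292 bp with a score of 152.22, lay 179 bp left of chr6:114868674-114872306, a region named after its values were seen, where joining moved the ratio from -0.69 to -1.40. Of the 9 members first counted, 2 no longer passed the cutoff when joined. These were chr2:118488339-118492194 and chr7:35010951-35016246, named after their values were seen. There the WT neighbour did overlap an HD peak, which lay over 2 kb from the member and was joined through it.

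**Figure D4:**
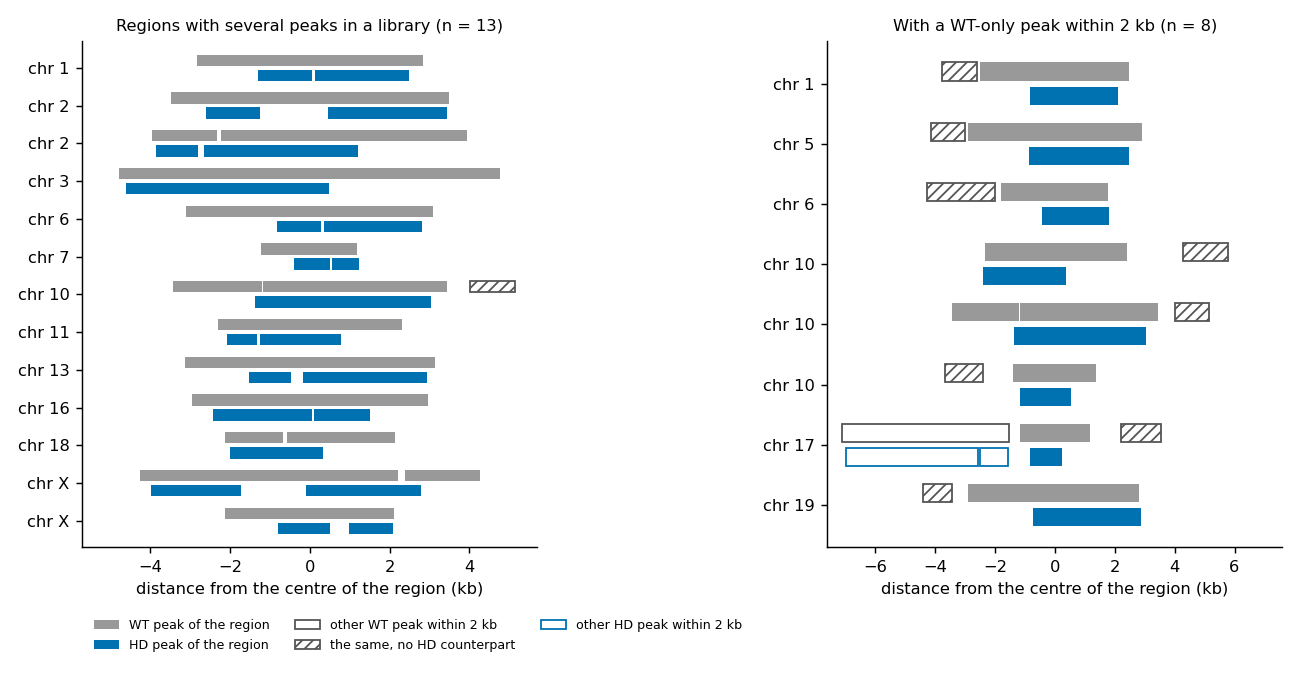
Left, the 13 members with several peaks in a library, and right, the 8 members with a WT peak lacking an HD counterpart within 2 kb (hatched), drawn as distance in kb from the region's centre with WT in grey and HD in blue. On the right, 5 of the 6 hatched peaks beside members with a single retracted edge stand on that side, which was also common beside other regions (48 of 74). On the left, 6 of the 11 gaps between HD peaks are at most 60 bp wide. Several peaks in a library were held by 4.33% of members and 3.05% of the other clearly called regions.

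Members occurred on all 19 autosomes and X, and none on Y, where few if any regions were clearly called. Their share of clearly called regions was 1.25% (0.69 to 2.09%) on chromosome 7, the lowest, and 3.09% (2.05 to 4.46%) on chromosome 1, the highest and the only one of 20 whose interval left out the overall share. Among 20 intervals of 95% each, 1 such case is not unusual from counting error alone. On X the share was 2.19% (1.10 to 3.89%), 11 of 502 regions. Members lay beside other members about as often as other regions did. The nearest clearly called region was itself a member for 5 of 300, 1.67% (0.54 to 3.85%), against 1.87% (1.66 to 2.10%) for other regions. Both are near the 1.96% that members made up of clearly called regions. Neighbours that were not members, within 50 kb, had a median log2 ratio of -0.08 (n = 169), the same as the -0.08 found beside the other regions. Marked regions next to members were thus about as long in HD, relative to WT, as those next to any other region.

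Some pairs of members are named here after their values were seen. The closest pair, 5.12 kb apart, was chr10:80719472-80722994, from 3232 to 2042 bp, and chr10:80728110-80730279, from 2170 to 1296 bp. On chromosome 5 the neighbouring regions chr5:131778878-131784667 and chr5:132008341-132015496, 224 kb apart with no clearly called region between, were both wide and both shorter on the left. The first covered 5790 bp in WT and 3332 bp in HD with 2041 bp missing at the left edge, the second 7156 and 4472 bp with 2440 bp missing there. Within 100 kb of each other lay 6 pairs of members, a count with no value for regions at large beside it.

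Members were more frequent where marked regions were sparse. Each clearly called region was ranked by how many regions of any kind lay within 500 kb. In the quintile with the fewest, up to 7, members were 93 of 3054, 3.05% (2.47 to 3.72%). Through the next quintiles the share was 2.23%, 1.87% and 1.57%, and in the quintile with the most neighbours, 25 to 63, it was 1.11% (0.77 to 1.55%). Regions over 1.5-fold longer in HD numbered 10, 12, 11, 17 and 18 from the sparsest to the densest quintile, each of 3053 or 3054 regions. Among those with WT scores of at least 500 they numbered 1, 4, 2, 4 and 4. These counts are too small to establish a trend.

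The sparsest quintile had the higher share in weak and in strong regions. Among regions with WT scores below 500 the share of members was 5.74% (4.27 to 7.51%) in the sparsest quintile and 1.98% (1.11 to 3.25%) in the densest. Among those of 500 and above it was 2.0% (1.46 to 2.68%) and 0.83% (0.50 to 1.29%). The non-members leaned the same way, with a median log2 ratio of -0.11 in the sparsest and -0.06 in the densest quintile. With the cutoff set about the median of each quintile, a choice made after seeing the data, the shares were 1.54% and 0.79%, so the ratio between them was 1.96 in place of 2.74. No other region of any kind lay within 500 kb of 8 members, 2.67% (1.16 to 5.19%), against 1.00% (0.85 to 1.17%) of the others.

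**Figure D5:**
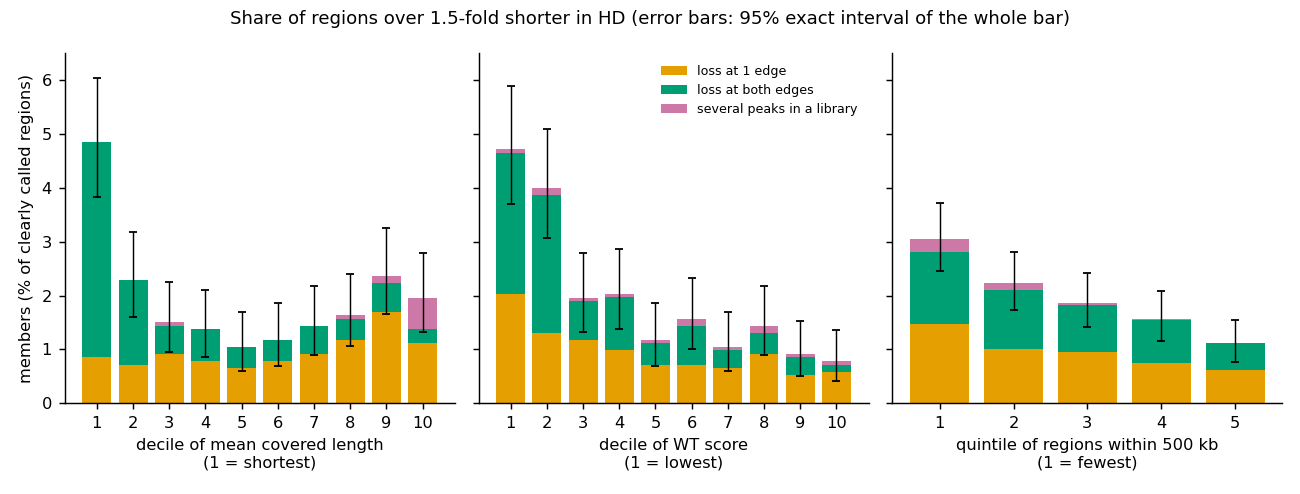
Members as a percentage of clearly called regions (vertical) by decile of mean covered length, decile of WT score and quintile of local region count, with colours for the edge class and error bars for the 95% exact interval of the whole bar. The share is highest for the weakest regions and for those shortest by mean length, which the HD shortening lowers in members. It stands at 2.36% and 1.96% in the 2 longest deciles, near the overall share, and falls from 3.05% to 1.11% as neighbouring regions become more numerous.

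The side of the loss had no fixed relation to the neighbouring marked region. Among 47 members with loss at a single edge and a clearly called region within 20 kb, the retracted edge faced that region in 23, 48.9% (34.1 to 63.9%). In the other clearly called regions the share was 47.8% (46.1 to 49.5%).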

How the data were processed

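ChIP-seq for H3K4me3 was compared between 1 WT and 1 HD library from adult mouse hippocampus made from 3 pooled mice each, with single-end reads of 50 bp. An input library belongs to the series and was not used here. The authors deposited 1 peak list per library, on mm9 (NCBIM37), with a score per peak. CASAVA 1.8.2, BWA 0.5.9 and SAMtools were used by the authors, per the submitters' processing notes. Peak names carry the name MACS, of which no version, setting or control is given in the sources used here. The scores reach 3100 in many peaks, the pattern of minus 10 times log10 of a p-value, though the files do not name the unit, so they were used only within a list. Peak start and end positions were deposited in bp, and coordinates are given counted from 1.

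Peaks overlapping by at least 1 bp were joined into regions in Python 3.11.15 with pandas 2.3.3, numpy 2.4.6 and scipy 1.17.1, and plotted with matplotlib 3.10.9. Lengths are base pairs covered by peaks. Intervals are exact (Clopper-Pearson) 95% binomial intervals over regions, cover counting error only and say nothing of variation between mice. With 1 library per genotype no test was made. As a check of the code, 200 of 18515 WT peaks were trimmed by a fixed fraction past the cutoff, at 1 edge or equally at both. All other edges were left identical. The procedure recovered 200 members and 200 edge classes. Those settings fixed the outcome, so it says nothing of lists with ordinary edge differences.

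Members, the rule for named regions and all lists were chosen with earlier results of these data known. The rule names the 12 largest losses, the 4 largest in each edge class, the 8 highest WT scores, the 4 widest in WT, the 4 just inside and 4 just outside the cutoff, and the 4 with most HD peaks within 2 kb. The comparison with regions at 1.2 to 1.5 times, the length and score classes, the 500 bp edge distance and the windows of 20, 50 and 500 kb were chosen after seeing the data. The lower bound of 1.2 replaced one of 1.25 whose values had been seen. Planned counts of gene lists and cell type markers were not run, for lack of an annotation on mm9.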

Additional observations from a re-analysis of the deposited data

How the results depend on the processing

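The number of members, 300, was 484 with no minimum score, 152 with the cutoff about the median ratio and 23 with a cutoff of 2. Under the other alternatives it stayed within 1.5 times, from 206 with a minimum score of 200 to 378 with single peaks below 100 removed first. With peaks within 2 kb joined it was 343, of which 278 overlapped the 300. The share of members with loss at a single edge, 51.2%, was 67.6% with 70% of the shift required and 30.7% with 90%. Members with another HD peak nearby, 7.00% within 2 kb, were 14.3% within 5 kb, where the other clearly called regions had 16.2%. With a minimum score of 200 the share on chromosome 18 was 1.06% in place of 2.50%, and those on the other chromosomes stayed within their intervals. The median log2 ratio, taken over the same 300 members each time, was between -0.68 and -0.67. It could hardly move, because the rule had chosen these members by this ratio. Joining peaks within 2 kb changed only 30 of the ratios. Lengths from first to last edge equal covered lengths in the 287 members with 1 peak each. For the ratio of shares between the sparsest and the densest quintile, all alternatives were chosen after seeing the data, and it ranged from 1.96 to 2.83. In the regions next below the cutoff, loss at a single edge was held by 39.8% with WT at least 1.2 times HD, 37.5% with 1.25, the bound used at first, and 38.0% with 1.3. For those under 2 kb the shares were 44.7%, 36.9% and 33.3%, all above the 17.6% of the members, and from 3 to 4 kb they were 42.1%, 44.9% and 53.1%. These bounds were chosen after seeing the data. No paired analysis was possible because the WT and HD groups hold a single library each. Leaving out a library was not possible for the same reason, and the gene alternatives were not run. The unknown depth limits what an uncalled flank can show.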
